A study of Homo sapiens with 12 samples.

Results

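The immediate-early and NF-kB response genes described here are 43 genes chosen by name for what is generally known of them, out of 57500 genes counted in every library. They were chosen with earlier results of these data known, so their counts and medians beside those of all genes are descriptions only. They fall into AP-1 subunits and MAFF (8 genes), other immediate-early transcription factors (9), IER genes (3), dual-specificity phosphatases (4), mRNA decay factors (3), NF-kB subunits (5), NF-kB inhibitors and TNF-induced regulators (6) and chemokines with an adhesion molecule (5). RNA sequencing was performed on HepG2 cells, a human hepatocarcinoma line, to compare wild-type control cells (WT) with cells silenced for thiosulfate sulfurtransferase (shTST) and cells overexpressing it (overTST), with 4 independent replicates in each of the 3 groups. TST, also called rhodanese, is the mitochondrial enzyme that converts cyanide to thiocyanate. All 3 groups were grown in ordinary culture medium with 400 µM glycine for 24 h before RNA was extracted. The shTST and overTST cells were transduced with lentivirus carrying, respectively, a TST shRNA and a codon-optimised, tagged TST sequence under a CMV promoter, and transduced cells were selected with blasticidin. Whether the WT cells carried an empty vector, and whether each line was a clone or a mixed population, is not given in the sources used here, so the change in TST cannot be told apart from the effects of transduction and selection.

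Immediate-early genes are transcribed within minutes of a growth factor, stress or cytokine signal, because the factors that switch them on, such as SRF with its ELK partners, CREB and NF-kB, are already present in the cell. Many of their products shut the response down again: the DUSP phosphatases inactivate MAP kinases, the ZFP36 proteins destroy unstable mRNAs, and NFKBIA and TNFAIP3 restrain NF-kB. In resting liver cells NF-kB dimers of RELA, RELB or REL with NFKB1 or NFKB2 are held in the cytoplasm by inhibitor proteins until the IKK kinase marks these for destruction.

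Depth ranged from 22911380 to 45120508 counts per library, and the biological coefficient of variation was 5.85% to 6.41% over the 3 comparisons. The share of counts from the mitochondrial genome was 6.84% to 8.66% in shTST, 10.8% to 11.7% in overTST, and 6.91%, 9.42%, 6.95% and 11.98% in WT replicates 1 to 4, so this share moved with the difference between the lines. TST itself was measured at 47.2 to 52.8 CPM (counts scaled to the library total) in WT, 33.0 to 36.6 in shTST and 51.8 to 62.1 in overTST (log2 fold change −0.52, adjusted p = 3.20e-06, and 0.24, adjusted p = 0.00384). Reads from a codon-optimised sequence need not align to the genomic gene, so the overTST value does not measure the transgene. All 10 hepatocyte markers examined were expressed in every library, with a summed level of 13760 to 18352 TPM (counts scaled to exonic length and library total) in WT, 17402 to 20912 in shTST and 12688 to 16432 in overTST. By the test given below, 5 of them were higher and 2 lower in shTST than in WT. In overTST 2 were higher and 2 lower than in WT, and in shTST against overTST 7 were higher and 1 lower. Of all genes tested, 16.1%, 33.9% and 33% passed in these 3 comparisons. Markers of other cells were low. The leukocyte genes PTPRC, CD3E and MS4A1 had at most 1 count in any library, but the 6-gene leukocyte and macrophage list summed to 1984 to 2789 TPM because of LYZ, which was high in all 3 groups. The 4 endothelial markers summed to 0.971 to 1.25 TPM in WT, 0.71 to 0.886 in shTST and 1.04 to 1.22 in overTST, with KDR at 0. The 5 fibroblast markers, nearly all PDGFRB with LUM at 0, summed to 8.16 to 9.68 TPM in WT, 6.55 to 8.07 in shTST and 5.29 to 5.9 in overTST. The endothelial sum was thus lowest in shTST, and the fibroblast sum did not overlap between the groups. The part of the mitochondrial share and of these markers in the results was not tested.

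WT replicate 2 stood apart from the other WT libraries for these genes. It had the highest CPM of the 4 WT libraries in 34 of the 41 members with enough counts to test (82.9%), against 28.9% of all 14883 genes tested, and it was at least 1.3-fold above the mean of the other WT libraries in 19 of the 41 (46.3%), against 5.32% of all genes. WT replicates 1, 3 and 4 were highest in 0, 5 and 2 members, and in none of the 41 members did any of these libraries reach 1.3-fold. The median log2 ratio of WT replicate 2 to the other WT libraries was 0.29 over the members and 0.0014 over all genes. WT replicate 2 was also the most deeply sequenced library, and what set it apart was not tested. The counts over the members are therefore given with and without it. A member's value against WT is given without it where that changes the call or the sign or moves the value by over 1.5 times. The comparison of shTST with overTST uses WT only to choose the genes tested, to scale the libraries and to estimate the spread.

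Levels of different genes were compared per exonic length, as TPM. In WT cells JUND was the most abundant member (246 ± 22.8 TPM, SD, n = 4), followed by IER3 (176 ± 35.9), MYC (152 ± 19.4), NFKBIA (128 ± 25.3) and ZFP36L2 (116 ± 15.5). Over the 4 libraries each of these 5 overlapped its neighbour in this order, so the order among neighbours is not resolved, whereas all 5 lay above ICAM1, the next member (55.2 ± 6.77). A further 20 members averaged 10 to 100 TPM, 9 averaged 1 to 10 TPM, and 7 averaged under 1 TPM, among them REL (0.947 ± 0.182), CXCL8 (0.881 ± 0.345) and FOSB (0.647 ± 0.198). FOS, the member most often used as a read-out of an acute signal, stood at 1.49 ± 0.217 TPM. The chemokine genes CXCL1 and CXCL2 had 0 counts in every WT library, which allows at most 0.102 CPM (3 counts) in the shallowest of them. In shTST and overTST no library held more than 1 count of either gene, and neither was tested in any comparison.

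**Figure D1:**
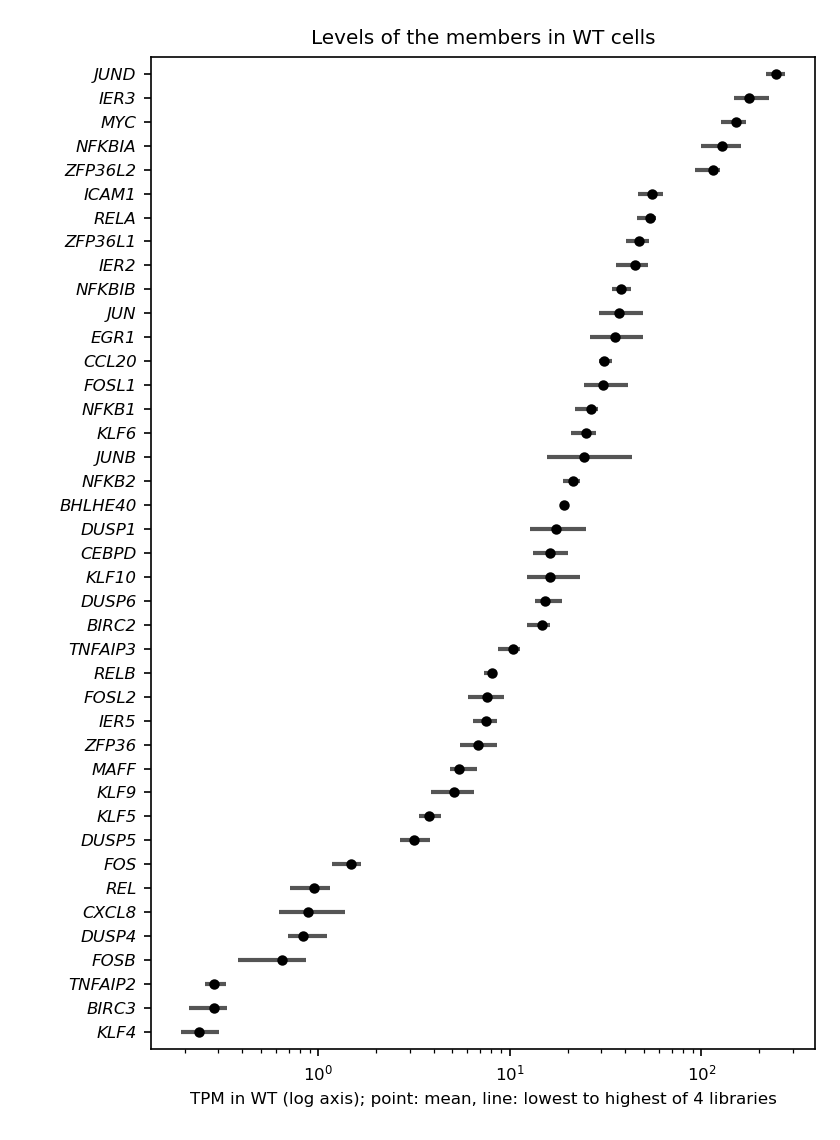
Level of each member with a count in WT cells, in TPM on a log axis, where points are means and lines run from the lowest to the highest of the 4 WT libraries. The members spread from 0.238 TPM (KLF4) to 246 TPM (JUND), and the long line of JUNB comes from WT replicate 2.

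Promoter sequences were examined because NF-kB and SRF act through short DNA motifs close to the start of many of these genes. RefSeq windows of 300 bases, from 250 before to 50 after the start site (GRCh38.p14), were found for 34 of the 43 members. These members have 43 windows, since some have several starts. On either strand the kB motif was present in 12 of the 43 windows, from 11 members, whereas 11.3% of all 35116 windows held it. The serum response element was present in 1 window, that of EGR1 (1.29% of all windows). TGANTCA, the AP-1 motif, was found in 3 windows (7.71% of all), TGACGTCA, the CREB motif, in 6 (1.85%), and CACGTG, the E-box bound by MYC and BHLHE40, in 7 (7.26%). The CREB motif was in BIRC2, DUSP1, JUND, MAFF and ZFP36L1, and the E-box in BHLHE40, DUSP1, KLF4, KLF6, MAFF and TNFAIP3. The sequences below show the kB motifs and serum response elements before the start site, in members that passed the test in at least 1 comparison. All are on the plus strand, with the motif in capitals. A further kB match of NFKBIB, 39 to 48 bases after the start, is not shown. The EGR1 stretch holds 2 serum response elements (chr5:138465362-138465417). The others are 30-base sites with a kB motif: MAFF (chr22:38202908-38202937), NFKB1 (chr4:102501300-102501329), the 4 NFKB2 sites in order (chr10:102394462-102394491, chr10:102394490-102394519, chr10:102395519-102395548 and chr10:102395674-102395703), NFKBIB (chr19:38899932-38899961), REL (chr2:60881518-60881547) and TNFAIP3 (chr6:137867188-137867217).
EGR1: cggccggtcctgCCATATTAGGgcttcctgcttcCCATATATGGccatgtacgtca
MAFF: ggctctccccGGAGTTTCCCagggcctccg
NFKB1: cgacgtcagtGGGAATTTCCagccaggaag
NFKB2 site 1: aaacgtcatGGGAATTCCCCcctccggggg
NFKB2 site 2: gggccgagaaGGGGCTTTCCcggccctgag
NFKB2 site 3: aacccccaccGGGGCTTCCCggattctcct
NFKB2 site 4: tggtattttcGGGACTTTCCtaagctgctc
NFKBIB: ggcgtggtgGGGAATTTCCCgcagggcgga
REL: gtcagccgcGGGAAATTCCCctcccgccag
TNFAIP3: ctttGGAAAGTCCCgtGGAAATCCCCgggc
Of the 5 NF-kB subunits, NFKB1, NFKB2 and REL thus carried the motif in these windows, RELA did not, and RELB had no window. The MAFF and TNFAIP3 sites and NFKB2 sites 1 and 2 lay wholly in annotated exons of the gene. The REL site did so for 27 of its 30 bases. NFKB2 sites 1 and 2 belong to a different start site than sites 3 and 4. A match is a description of the letters and no site of binding, and the 6 members with a kB motif printed above differed among themselves in the tests given below.

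In shTST against WT, 15 of the 40 members tested were lower and 0 higher (edgeR quasi-likelihood test, adjusted p of 0.05 or less over all genes tested). Of all 14584 genes tested, 16.1% passed, 9.4% lower and 6.69% higher. The median log2 fold change of the members was −0.18, against 0.0040 for all genes. The 4 shTST libraries lay wholly below the 4 WT libraries in 10 members and wholly above in 1 (FOS), whereas 19.1% of all genes did not overlap in either direction. Without WT replicate 2, 10 members were lower and 2 higher and the median was −0.13, against 0.0013 for all genes. The share of all genes called is not given for that fit. The 10 lower members were the same in both fits (JUND, MAFF, EGR1, KLF9, BHLHE40, MYC, IER3, RELB, NFKB2 and ICAM1), while DUSP6, JUNB, KLF10, NFKB1 and RELA were no longer called, and FOS and JUN were newly called as higher. In bulk RNA, fewer expressing cells and less RNA per cell cannot be told apart.

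In overTST against WT, 10 of the 40 members tested were higher and 8 lower. Among all 14421 genes tested 33.9% passed, 15.7% higher and 18.2% lower, and the median log2 fold change was −0.042 for the members and 0.0019 for all genes. The overTST libraries lay wholly above WT in 5 members and wholly below in 8, and 30.4% of all genes did not overlap. Without WT replicate 2, 15 members were higher and 7 lower, with a median of 0.016, against 0.0042 for all genes. The share of all genes called is not given for that fit. The 17 members called in both fits were FOSL1, JUN, JUND, KLF6, CEBPD, IER3, IER5, DUSP5, ZFP36 and NFKBIB, which were higher, and EGR1, KLF9, KLF10, MYC, ZFP36L2, REL and NFKB1, which were lower. TNFAIP3 was called only with all 4 WT libraries, and CXCL8, FOSL2, IER2, MAFF and NFKBIA only without WT replicate 2.

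In shTST against overTST, 16 of the 41 members tested were lower in shTST and 6 higher. Among all 14883 genes tested 33% passed, 16.1% lower and 16.9% higher. The median log2 fold change was −0.19 for the members and 0.00084 for all genes. The groups did not overlap in 24 members, 18 lower and 6 higher in shTST, against 29.2% of all genes. Fitted on the 8 libraries of the 2 lines alone, 19 members were lower and 6 higher, and the share of all genes is not given for that fit. The comparisons of the 2 lines with WT share the 4 WT libraries, and their values are given side by side below.

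**Figure D2:**
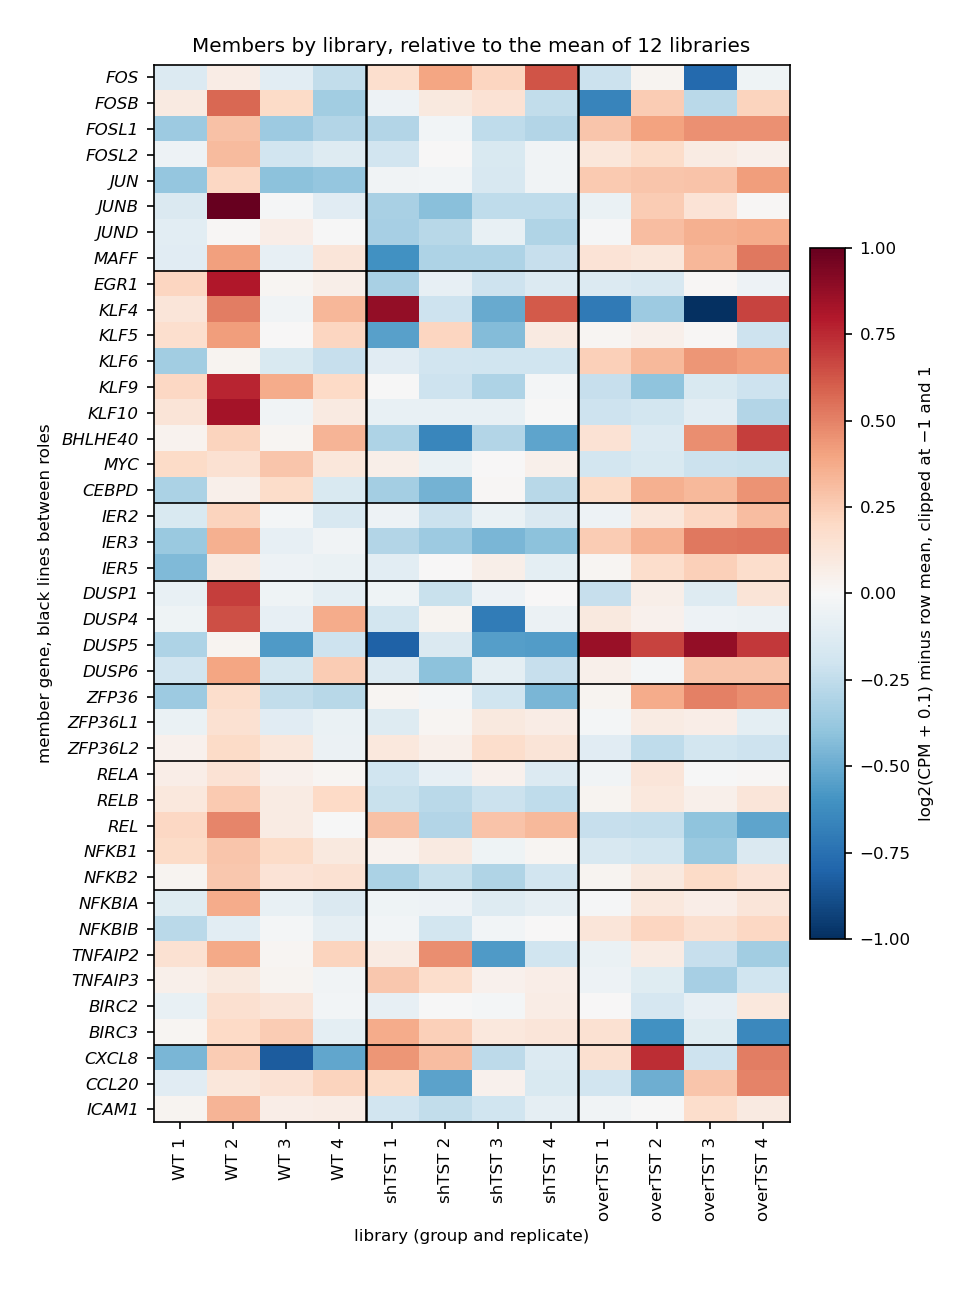
Heat map of 41 members in the 12 libraries, grouped by role, where colour is log2(CPM + 0.1) minus the mean of the 12 libraries, from −1 (blue) to 1 (red). The column of WT replicate 2 is redder than those of the other WT libraries for JUNB, EGR1, KLF9, KLF10 and DUSP1, and DUSP5, KLF6 and IER3 are red in all 4 overTST libraries.

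**Figure D3:**
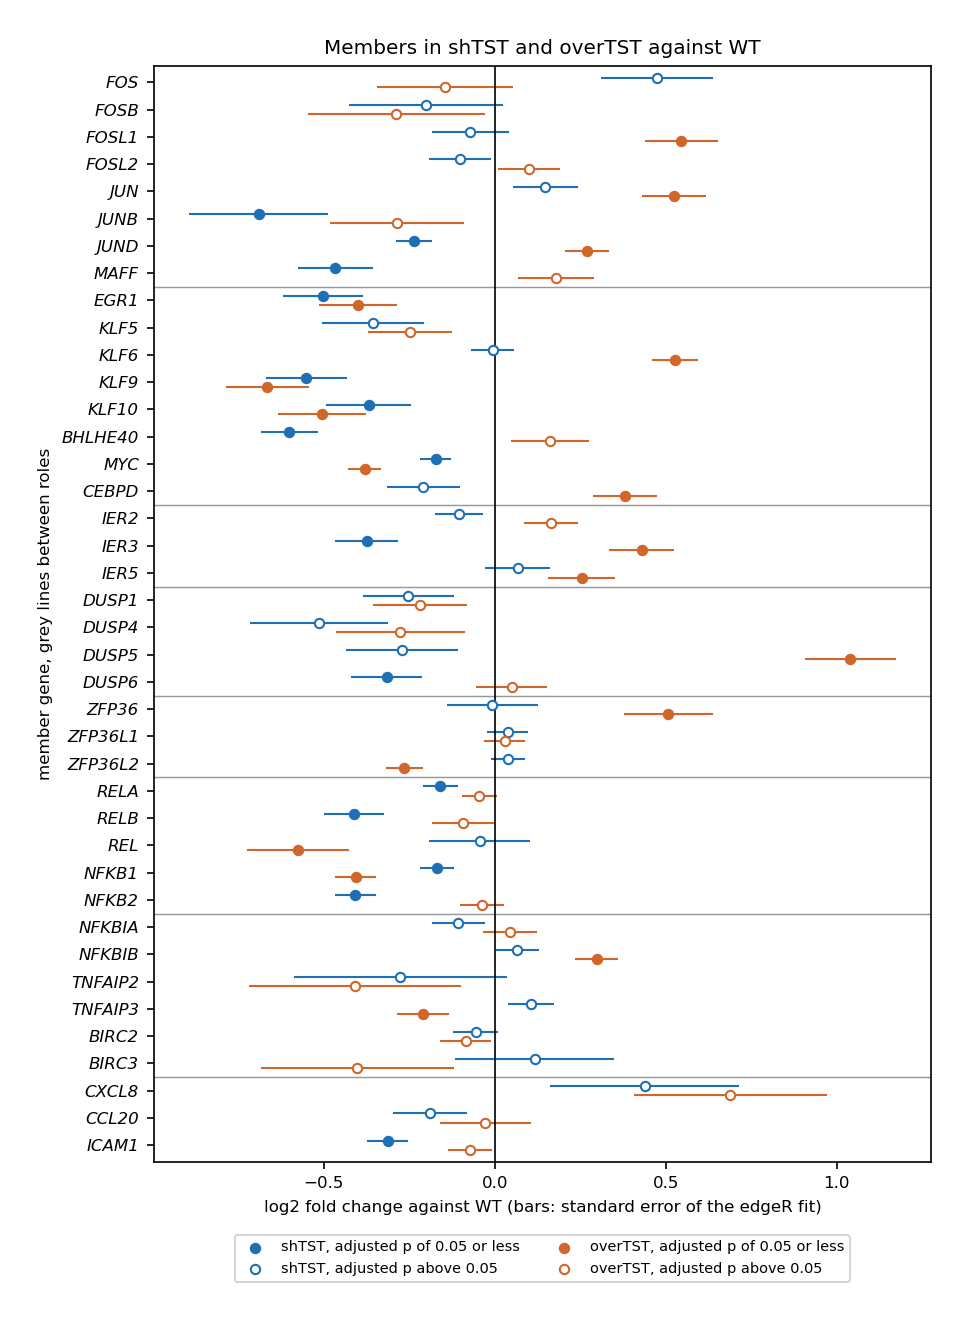
Log2 fold change of 40 members in shTST (blue) and overTST (orange) against WT, with the standard error of the edgeR fit as bars and filled points for an adjusted p of 0.05 or less. No blue filled point lies above 0, whereas the orange filled points lie on both sides, 10 above and 8 below.

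AP-1 is a dimer of a FOS and a JUN family protein. Of its 7 subunits and MAFF, a small MAF protein that binds related motifs, 3 were lower in shTST than in WT (JUNB, JUND and MAFF) and 3 were higher in overTST than in WT (FOSL1, JUN and JUND). Of all genes tested, 9.4% were called lower in shTST and 15.7% higher in overTST. Counts by role, here and below, rest on few genes and were not tested. JUN, the founding member of the family, was measured at 41.7, 62.9, 41.0 and 41.6 CPM in WT replicates 1 to 4, at 53.1, 53.5, 48.8 and 53.2 in shTST, and at 65.2, 66.1, 66.4 and 72.7 in overTST. All overTST libraries exceeded all others, and the shTST libraries lay above 3 of the WT libraries and below WT replicate 2. JUN was higher in overTST, with a log2 fold change of 0.52 (SE 0.09, adjusted p = 0.000148) and 0.15 in shTST (SE 0.10, adjusted p = 0.317), which became 0.70 (adjusted p = 1.22e-08) and 0.33 (adjusted p = 0.000139) without WT replicate 2.

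JUND, the most abundant subunit, went in opposite directions in the 2 lines. It stood at 152, 165, 171 and 163 CPM in WT, 130.0, 135, 155 and 133 in shTST and 162, 203, 209 and 211 in overTST. Only 1 library of each line, shTST replicate 3 and overTST replicate 1, reached into the WT range. It was lower in shTST by a log2 fold change of −0.23 (SE 0.05, adjusted p = 0.00413) and higher in overTST by 0.27 (SE 0.06, adjusted p = 0.00220), and WT replicate 2 did not alter either call. After a correction for gene length the overTST value was 0.12 (adjusted p = 0.13).

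FOSL1, which encodes the FOS family protein FRA1, was measured at 17.6, 27.9, 17.7 and 18.5 CPM in WT, 18.6, 22.3, 19.0 and 18.6 in shTST and 27.7, 30.2, 31.3 and 31.3 in overTST. The overTST libraries were above all shTST libraries and overlapped WT only at WT replicate 2. FOSL1 was higher in overTST than in WT (log2 fold change 0.55, SE 0.11, adjusted p = 0.000319, and 0.74 without WT replicate 2), and in shTST it was lower than in overTST (−0.62, adjusted p = 0.000100). JUNB, an AP-1 subunit that often opposes JUN, depended on a single library. It stood at 11.2, 28.2, 12.3 and 11.5 CPM in WT, 9.88, 9.25, 10.4 and 10.4 in shTST and 11.9, 14.8, 13.6 and 12.5 in overTST. Its log2 fold change in shTST was −0.69 (SE 0.20, adjusted p = 0.0229) with all WT libraries and −0.22 (adjusted p = 0.0790) without WT replicate 2, and JUNB was not called by DESeq2 (adjusted p = 0.158), by limma-voom (0.336) or without shTST replicate 1 (0.0656). Part of the JUNB exons (14.2%) overlaps HOOK2 on the opposite strand, and the use of strand in counting is not given in the sources used here.

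MAFF was measured at 9.41, 13.6, 9.64 and 11.1 CPM in WT, 6.66, 8.21, 8.23 and 8.70 in shTST and 11.2, 11.1, 12.9 and 14.8 in overTST. Every shTST library was below every library of the other groups. It was lower in shTST (log2 fold change −0.47, SE 0.11, adjusted p = 0.00593, and −0.34 without WT replicate 2), and in overTST the value was 0.18 (adjusted p = 0.227) with and 0.31 (adjusted p = 0.02995) without WT replicate 2. FOS was low throughout, at 1.66, 1.93, 1.70 and 1.53 CPM in WT, 2.08, 2.44, 2.15 and 2.89 in shTST and 1.57, 1.86, 1.03 and 1.77 in overTST, which rests on 26 to 88 counts a library. The shTST libraries lay above all others. FOS was higher in shTST than in overTST (log2 fold change 0.62, SE 0.19, adjusted p = 0.0122), a call lost without shTST replicate 4 (adjusted p = 0.0569) or overTST replicate 3 (0.0679), and against WT shTST stood at 0.48 (SE 0.16, adjusted p = 0.0511, and 0.0485 without WT replicate 2). FOSL2 and FOSB passed in no comparison with all libraries, with log2 fold changes of −0.10 and −0.20 in shTST and 0.10 and −0.29 in overTST. When WT replicate 2 was left out these became 0.029 and 0.0051 in shTST and 0.23 and −0.084 in overTST, and FOSL2 was then called as higher in overTST (adjusted p = 0.0236).

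Of the 9 other immediate-early transcription factors 8 could be tested against WT, and 5 of them were lower in shTST (EGR1, KLF9, KLF10, BHLHE40 and MYC). In overTST 4 were lower (EGR1, KLF9, KLF10 and MYC) and 2 higher (KLF6 and CEBPD). Of all genes tested, 9.4% were called lower in shTST, and 18.2% lower and 15.7% higher in overTST. BHLHE40, a basic helix-loop-helix repressor of the circadian clock and of lipid genes, was lowest in the silenced line. It was measured at 24.1, 27.3, 23.8 and 29.6 CPM in WT, 18.9, 14.9, 19.2 and 16.2 in shTST and 25.9, 21.3, 32.4 and 37.8 in overTST. All shTST libraries lay below all others, and the overTST libraries were spread on both sides of WT. The log2 fold change in shTST was −0.60 (SE 0.08, adjusted p = 6.80e-05) and changed little without WT replicate 2 (−0.58, adjusted p = 5.67e-05). In overTST it was 0.16 (SE 0.11, adjusted p = 0.292), and 0.29 (adjusted p = 0.0384) without overTST replicate 2. Between the lines BHLHE40 differed by −0.76 (SE 0.12, adjusted p = 3.53e-05).

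EGR1, the zinc-finger factor whose promoter stretch with 2 serum response elements is printed above, stood at 37.0, 55.5, 32.3 and 33.3 CPM in WT, 25.4, 30.1, 27.7 and 28.9 in shTST and 28.9, 28.5, 32.2 and 30.8 in overTST. Both lines lay wholly below WT and overlapped each other. The log2 fold change was −0.50 in shTST (SE 0.12, adjusted p = 0.00504) and −0.40 in overTST (SE 0.11, adjusted p = 0.00812), which shrank to −0.28 (adjusted p = 0.00449) and −0.19 (adjusted p = 0.0451) without WT replicate 2. DESeq2 and limma-voom did not call either (adjusted p = 0.0534 and 0.161 in shTST, 0.0995 and 0.192 in overTST).

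KLF9, a Krüppel-like factor induced by glucocorticoid and thyroid hormone, was lower in both lines. Its values were 8.15, 11.99, 9.13 and 8.10 CPM in WT, 7.01, 6.10, 5.68 and 6.97 in shTST and 6.01, 5.29, 6.32 and 6.09 in overTST, so neither line overlapped WT. The log2 fold changes were −0.55 (SE 0.12, adjusted p = 0.00299) and −0.66 (SE 0.12, adjusted p = 0.000170), and −0.40 and −0.51 without WT replicate 2, where both remained called. KLF10, a TGF-β-induced factor, stood at 20.4, 33.3, 18.3 and 19.9 CPM in WT, 17.8, 17.7, 17.8 and 18.6 in shTST and 16.2, 16.4, 17.4 and 15.2 in overTST. It was lower in overTST (−0.51, SE 0.13, adjusted p = 0.00333, and −0.26 with adjusted p = 0.0133 without WT replicate 2), although not by DESeq2 (0.0509) or limma-voom (0.134). Its call in shTST (−0.37, SE 0.13, adjusted p = 0.0474) was lost without WT replicate 2 (−0.12, adjusted p = 0.261), without any single shTST library (0.0780 to 0.113) and with DESeq2 (0.217).

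MYC, the growth-promoting E-box factor, was lower in both lines and was little affected by WT replicate 2. It was measured at 162, 158, 172 and 154 CPM in WT, 148, 136, 142 and 147 in shTST and 125, 128, 122 and 121 in overTST. The 3 groups did not overlap, with WT highest and overTST lowest. It was lower by a log2 fold change of −0.17 in shTST (SE 0.05, adjusted p = 0.0116) and −0.38 in overTST (SE 0.05, adjusted p = 2.94e-06), and MYC was higher in shTST than in overTST by 0.21 (SE 0.05, adjusted p = 0.00110). The shTST call was lost without shTST replicate 2 (−0.14, adjusted p = 0.0543).

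KLF6, a Krüppel-like factor, was higher in overTST than in either other group. It stood at 47.9, 62.1, 54.8 and 52.0 CPM in WT, 56.4, 53.3, 53.3 and 53.2 in shTST and 72.2, 76.5, 82.9 and 81.2 in overTST. Its log2 fold change in overTST was 0.53 (SE 0.07, adjusted p = 2.28e-06), and that in shTST was −0.0059 (SE 0.06, adjusted p = 0.962, and 0.069 without WT replicate 2). CEBPD, a C/EBP factor of the acute-phase response, behaved likewise, at 10.4, 13.4, 14.7 and 11.6 CPM in WT, 10.2, 9.28, 13.1 and 10.7 in shTST and 14.8, 16.6, 16.3 and 17.7 in overTST. It was higher in overTST (0.38, SE 0.09, adjusted p = 0.00295), and shTST against WT gave −0.21 (adjusted p = 0.192), or −0.32 (adjusted p = 0.0499) without shTST replicate 3. KLF5 passed in no comparison (−0.36 in shTST and −0.25 in overTST, the latter −0.16 without WT replicate 2). KLF4, with 1 to 18 counts a library, could be tested only between the 2 lines (0.78, SE 0.53, adjusted p = 0.276).

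**Figure D4:**
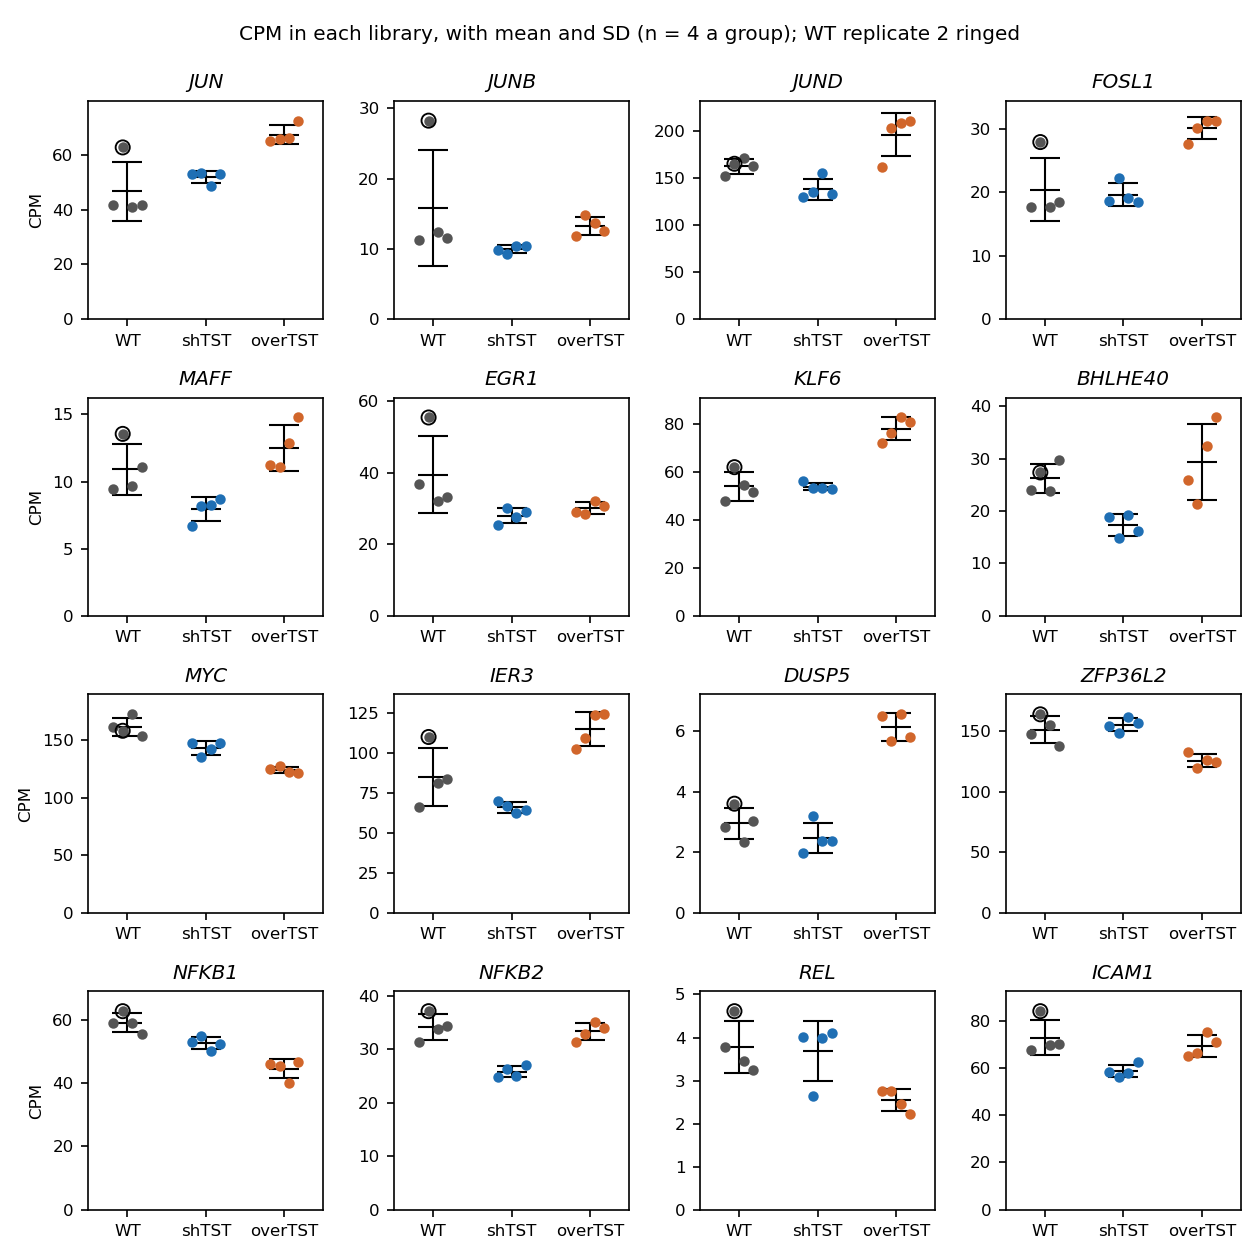
CPM of 16 members in each library of WT (grey), shTST (blue) and overTST (orange), with the mean and SD of 4 replicates as black lines and WT replicate 2 ringed. JUN, KLF6 and DUSP5 are highest in overTST, BHLHE40, MAFF and NFKB2 are lowest in shTST, and MYC and NFKB1 step down from WT through shTST to overTST.

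Among the IER genes, IER3, an anti-apoptotic NF-kB target, was lower in shTST and higher in overTST. It was measured at 66.3, 110.2, 81.1 and 83.7 CPM in WT, 70.1, 66.8, 62.6 and 64.7 in shTST and 103, 109, 124 and 124 in overTST. The lines did not overlap each other, and each overlapped WT at 1 end of the WT range. The log2 fold change was −0.37 in shTST (SE 0.09, adjusted p = 0.00783) and 0.43 in overTST (SE 0.09, adjusted p = 0.00106), and −0.22 (adjusted p = 0.0159) and 0.58 (adjusted p = 3.27e-06) without WT replicate 2. Limma-voom called neither difference from WT (adjusted p = 0.18 and 0.0765), DESeq2 did not call that in shTST (0.0774), and the overTST value was 0.25 (adjusted p = 0.0544) after a correction for gene length. Between the lines IER3 differed by −0.80 (SE 0.09, adjusted p = 1.01e-06), past the threshold in all 11 alternatives and in all 8 fits that left out a library. IER5, which encodes a regulator of heat shock factor, was higher in overTST (0.25, SE 0.10, adjusted p = 0.0466), but in only 2 of the 8 fits that left out a library, 1 of them that without WT replicate 2 (adjusted p = 0.0142). IER2, a nuclear protein of uncertain function, was lower in shTST than in overTST (−0.27, SE 0.08, adjusted p = 0.00846) and passed in neither comparison with WT when all libraries were used. Against WT it stood at 0.16 in overTST (adjusted p = 0.109), and at 0.26 (adjusted p = 0.00745) without WT replicate 2.

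The DUSP genes encode phosphatases that remove the activating phosphates of MAP kinases. DUSP5, which acts on ERK in the nucleus, had the largest log2 fold change of the 41 members tested. It stood at 2.83, 3.60, 2.34 and 3.04 CPM in WT, 1.97, 3.18, 2.38 and 2.36 in shTST and 6.49, 5.68, 6.55 and 5.82 in overTST, on 55 to 174 counts a library. Every overTST library was well above every other library. Its log2 fold change was 1.04 in overTST (SE 0.13, adjusted p = 2.73e-06), −0.27 in shTST (SE 0.16, adjusted p = 0.282) and −1.31 between the lines (SE 0.15, adjusted p = 5.71e-07). Leaving out WT replicate 2 gave 1.16 in overTST and −0.15 in shTST.

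DUSP6, the cytoplasmic ERK phosphatase, was measured at 20.8, 31.2, 21.0 and 28.4 CPM in WT, 21.6, 17.8, 22.2 and 20.1 in shTST and 24.6, 23.4, 28.7 and 28.7 in overTST. It was lower in shTST than in overTST (log2 fold change −0.36, SE 0.11, adjusted p = 0.00961), without overlap. Its call in shTST against WT (−0.32, SE 0.10, adjusted p = 0.0407) was lost in 5 of the 8 fits that left out a library, among them WT replicate 2 (−0.19, adjusted p = 0.1603), WT replicate 4 (0.125) and shTST replicates 1, 2 and 4 (0.0703, 0.124 and 0.0911), and with DESeq2 (0.171) and limma-voom (0.205). DUSP1 and DUSP4 passed in no comparison, with −0.25 and −0.51 in shTST and −0.22 and −0.28 in overTST. The DUSP1 values were −0.0031 and 0.028 without WT replicate 2, and those of DUSP4 −0.33 and −0.095.

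The ZFP36 family, whose proteins bind AU-rich elements and promote mRNA decay, was split. ZFP36 itself, at 4.21, 6.15, 4.58 and 4.48 CPM in WT, 5.51, 5.36, 4.72 and 3.95 in shTST and 5.56, 7.07, 7.78 and 7.55 in overTST, was higher in overTST (log2 fold change 0.51, SE 0.13, adjusted p = 0.00407). The overTST libraries overlapped WT at WT replicate 2 and lay above all shTST libraries. ZFP36L2, at 148, 164, 155 and 138 CPM in WT, 154, 149, 162 and 157 in shTST and 133, 120.0, 126 and 124 in overTST, was lower in overTST, where no library reached the other groups (−0.26, SE 0.05, adjusted p = 0.000561). In shTST the values were −0.0076 for ZFP36 (adjusted p = 0.979), 0.039 for ZFP36L2 (0.646) and 0.037 for ZFP36L1 (0.721), and ZFP36L1 also stood at 0.029 in overTST (0.745). These became 0.14, 0.081, 0.10 and 0.092 without WT replicate 2, and none was called.

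Of the 5 NF-kB subunits, 4 were lower in shTST than in WT (RELA, RELB, NFKB1 and NFKB2) and 2 were lower in overTST (REL and NFKB1), and none was higher in either line. Of all genes tested, 9.4% were called lower in shTST and 18.2% lower in overTST. NFKB2, which encodes p100 and its processed form p52, was measured at 31.4, 37.1, 33.8 and 34.4 CPM in WT, 24.8, 26.4, 25.1 and 27.0 in shTST and 31.4, 32.9, 35.2 and 33.9 in overTST. RELB, the usual partner of p52, stood at 8.37, 9.33, 8.22 and 8.96 CPM in WT, 6.66, 6.43, 6.67 and 6.50 in shTST and 7.91, 8.39, 8.05 and 8.46 in overTST. For both genes the shTST libraries lay wholly below the other groups, and overTST overlapped WT. The log2 fold changes in shTST were −0.41 for NFKB2 (SE 0.06, adjusted p = 0.000121) and −0.41 for RELB (SE 0.09, adjusted p = 0.00263), and −0.36 and −0.38 without WT replicate 2. Both calls stood in all 8 fits that left out a library and all 11 other alternatives. In overTST the values were −0.038 (adjusted p = 0.691) and −0.092 (adjusted p = 0.469), or 0.0046 and −0.057 without WT replicate 2, and between the lines −0.37 (adjusted p = 7.40e-05) and −0.32 (adjusted p = 0.00640).

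NFKB1, which encodes p105 and its processed form p50, followed the order of MYC. It was measured at 59.1, 62.8, 59.2 and 55.5 CPM in WT, 53.0, 54.9, 50.2 and 52.4 in shTST and 46.2, 45.5, 40.1 and 46.8 in overTST, and the 3 groups did not overlap. It was lower in overTST (log2 fold change −0.41, SE 0.06, adjusted p = 1.59e-05) and lower there than in shTST (0.24 for shTST against overTST, SE 0.06, adjusted p = 0.00197). Its call in shTST against WT (−0.17, SE 0.05, adjusted p = 0.0247) was lost without WT replicate 2 (−0.14, adjusted p = 0.0715) and without shTST replicate 1, 3 or 4 (0.0618, 0.0820 and 0.0707). REL stood at 3.78, 4.61, 3.46 and 3.25 CPM in WT, 4.01, 2.65, 4.00 and 4.12 in shTST and 2.76, 2.75, 2.45 and 2.23 in overTST. It was lower in overTST than in WT (−0.58, SE 0.15, adjusted p = 0.00421, and −0.46 without WT replicate 2) and higher in shTST than in overTST (0.53, SE 0.16, adjusted p = 0.0116), with only shTST replicate 2 in the overTST range. After the length correction the last value was 0.39 (adjusted p = 0.0601). Of the exonic bases of REL 50.7% are shared with another annotated gene on the same strand, which had a median of 0 counts. The TPM of REL divides by all of its exonic bases, and whether reads in the shared part were counted was not tested.

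RELA, the transactivating subunit of the classical dimer, was measured at 105, 111, 103 and 102 CPM in WT, 87.2, 94.4, 103 and 90.7 in shTST and 97.3, 109, 99.6 and 101 in overTST. Its log2 fold change in shTST (−0.16, SE 0.05, adjusted p = 0.0341) passed in only 2 of the 8 fits that left out a library, and it was lost without WT replicate 1, 2 or 4 (0.0559, 0.0846 and 0.0537) or shTST replicate 1, 2 or 4 (0.1596, 0.0683 and 0.119). In overTST it was −0.046 (adjusted p = 0.522), and −0.021 without WT replicate 2.

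Of the 6 NF-kB inhibitors and TNF-induced regulators none passed in shTST, and in overTST NFKBIB was higher and TNFAIP3 lower. In overTST 33.9% of all genes tested were called, and in shTST 16.1%. NFKBIA, the inhibitor IκBα and a direct NF-kB target, stood at 97.9, 137, 101 and 95.9 CPM in WT, 103, 103, 97.0 and 99.6 in shTST and 106, 114, 111 and 116 in overTST. The log2 fold changes were −0.11 (SE 0.08, adjusted p = 0.383) and 0.044 (SE 0.08, adjusted p = 0.703). Without WT replicate 2 they were 0.033 (adjusted p = 0.697) and 0.18 (adjusted p = 0.00962). TNFAIP3, the ubiquitin-editing enzyme A20, was measured at 18.8, 19.4, 18.6 and 17.8 CPM in WT, 21.97, 20.6, 18.8 and 19.1 in shTST and 17.5, 16.7, 14.4 and 15.8 in overTST. All overTST libraries lay below all others. TNFAIP3 was higher in shTST than in overTST (0.32, SE 0.07, adjusted p = 0.00163). Its call in overTST against WT (−0.21, SE 0.08, adjusted p = 0.0343) was lost without WT replicate 1, 2 or 3 (0.0721, 0.0786 and 0.0504) or overTST replicate 3 or 4 (0.147 and 0.0745). NFKBIB, the inhibitor IκBβ, was higher in overTST (0.30, SE 0.06, adjusted p = 0.000715), at 38.6 ± 1.19 against 31.4 ± 2.27 CPM in WT (SD, n = 4 each). BIRC2, BIRC3 and TNFAIP2 passed in no comparison, and the latter 2 were below 1 CPM in every library.

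Among the inflammatory effectors, ICAM1, the leukocyte adhesion molecule, was lower in shTST. It stood at 67.7, 84.0, 69.5 and 69.9 CPM in WT, 58.1, 56.1, 58.0 and 62.3 in shTST and 65.0, 66.2, 75.0 and 70.9 in overTST. The shTST libraries lay below all others, and overTST overlapped WT. Its log2 fold change was −0.31 in shTST (SE 0.06, adjusted p = 0.00124, and −0.24 with adjusted p = 0.00207 without WT replicate 2) and −0.073 in overTST (adjusted p = 0.412, and 0.0032 without WT replicate 2). CXCL8, the neutrophil chemokine IL-8, was near 1 CPM: it stood at 0.646, 1.12, 0.475 and 0.613 CPM in WT, 1.29, 1.17, 0.754 and 0.830 in shTST and 1.04, 1.61, 0.790 and 1.36 in overTST, on 14 to 51 counts a library. It passed in no comparison with all libraries (0.44 in shTST, adjusted p = 0.302, and 0.69 in overTST, adjusted p = 0.0624). Without WT replicate 2 the shTST value was 0.78 (adjusted p = 0.0778) and the overTST value 1.03 (SE 0.30, adjusted p = 0.0113), and without overTST replicate 3 it was 0.85 (adjusted p = 0.0342). CCL20, a chemokine for CCR6-bearing cells, was expressed at 31.1 ± 2.10 TPM in WT and passed in no comparison (−0.19 in shTST and −0.028 in overTST).

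Since WT replicate 2 was high in most members, leaving it out raised most of their log2 fold changes, which is no further observation. The log2 fold change was larger without it in 39 of 40 members in shTST and in 39 of 40 in overTST, by a median of 0.089 and 0.087, and by the most in JUNB (0.47 and 0.46). The exception in both was MYC, which was lowest among the WT libraries in replicate 4 and not high in replicate 2. Since the same WT library enters both comparisons, these 2 shifts are not separate observations.

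**Figure D5:**
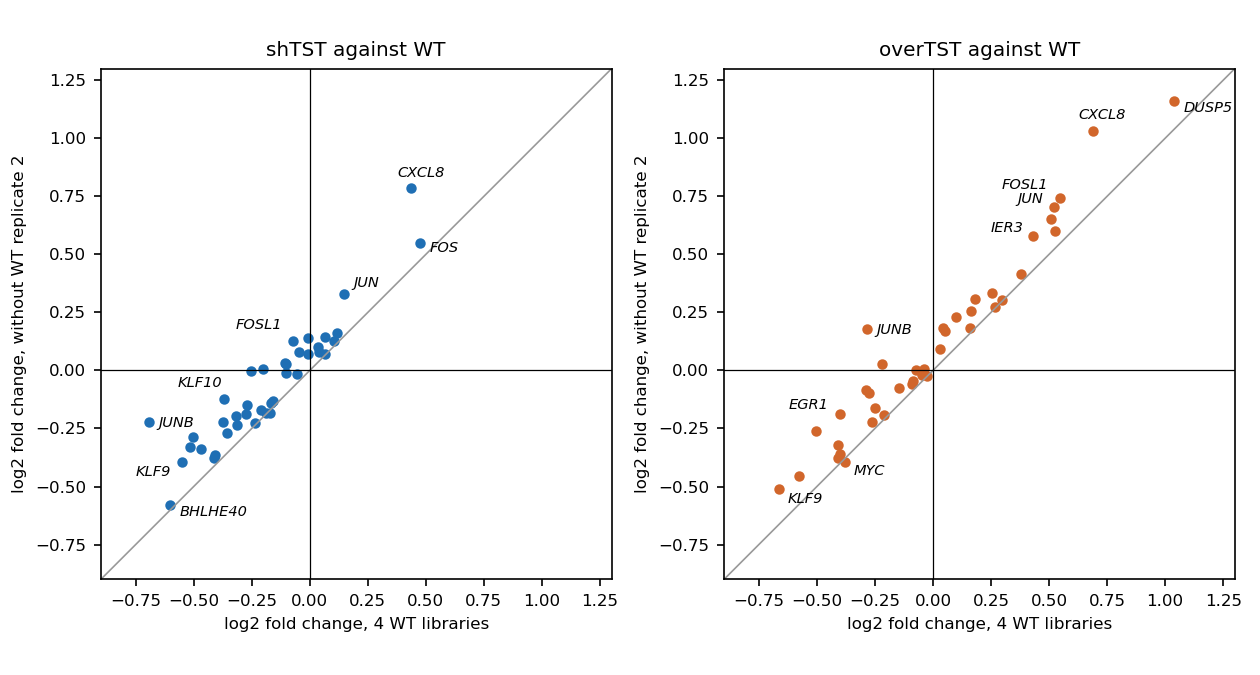
Log2 fold change of 40 members with all 4 WT libraries (x axis) and without WT replicate 2 (y axis) for shTST and overTST, with the grey line marking equal values. Nearly all points lie above the line, JUNB farthest, and BHLHE40 in shTST lies close to it.

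By their calls with all libraries the members fell into a few patterns over the 3 comparisons. BHLHE40, MAFF, DUSP6, RELB, NFKB2 and ICAM1 were lower in shTST than in both WT and overTST. FOSL1, JUN, KLF6, CEBPD, DUSP5, ZFP36 and NFKBIB were higher in overTST than in both WT and shTST. JUND and IER3 were lower in shTST and higher in overTST than in WT. MYC and NFKB1 were lower in both lines and lowest in overTST, and EGR1, KLF9 and KLF10 were lower in both without a called difference between the lines. ZFP36L2, REL and TNFAIP3 were lower in overTST than in both other groups. In 12 members no comparison passed (FOSB, FOSL2, KLF5, DUSP1, DUSP4, ZFP36L1, NFKBIA, TNFAIP2, BIRC2, BIRC3, CXCL8 and CCL20). Without WT replicate 2, DUSP6, KLF10 and NFKB1 were no longer called in shTST against WT, nor TNFAIP3 in overTST. JUN was then called as higher in shTST, and MAFF, FOSL2, NFKBIA and CXCL8 as higher in overTST. Some of these calls also changed with the method. DESeq2 and limma-voom did not call EGR1 in either line, KLF10 in overTST or DUSP6 in shTST against WT. Limma-voom called IER3 in neither line against WT, and DESeq2 called neither IER3 nor KLF10 in shTST. After the length correction JUND and IER3 were not called in overTST against WT, nor REL between the lines.

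Genes of the surrounding pathways, taken from 5 lists of textbook members, were mixed. Their counts stand beside the 16.1% of all genes called in shTST (6.69% higher and 9.4% lower) and the 33.9% called in overTST (15.7% higher and 18.2% lower). Of 33 other immediate-early genes tested, 2 were higher and 6 lower in shTST, and 4 higher and 6 lower in overTST. The kinase gene PIM1 was lower in shTST (log2 fold change −0.66, adjusted p = 0.000190). The antiproliferative gene BTG2 was higher in both lines (0.56, adjusted p = 0.000128, and 0.44, adjusted p = 0.000696). KLF11 was lower in overTST (−0.90, adjusted p = 3.88e-05), and PHLDA1 was higher there (0.25, adjusted p = 0.000196). Of 16 feedback inhibitors and read-outs of ERK signalling, 1 was higher and 5 lower in shTST and 1 higher and 3 lower in overTST, with PHLDA2 (−0.90, adjusted p = 9.50e-05) and the ETS factor ETV4 (−0.25, adjusted p = 0.000541) lower and DUSP10 (0.80, adjusted p = 0.00296) higher in shTST, and ETV5 (−0.40, adjusted p = 1.20e-05) and SPRED1 (−0.41, adjusted p = 0.000189) lower in overTST.

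Upstream, 31 genes of the ERK, JNK and SRF pathway were tested, of which 1 was higher and 9 lower in shTST and 3 higher and 15 lower in overTST. The receptor genes EGFR and MET were lower in both lines. EGFR averaged 16.8 ± 1.85 CPM in WT, 11.8 ± 1.90 in shTST and 9.93 ± 1.02 in overTST (SD, n = 4 each), with log2 fold changes of −0.52 (adjusted p = 0.00123) and −0.76 (adjusted p = 1.78e-06), and MET gave −0.28 (adjusted p = 0.00168) and −0.56 (adjusted p = 6.41e-06). ERBB2 was lower in overTST (−0.34, adjusted p = 5.25e-06), and ELK3, a partner of SRF, was lower in shTST (−0.56, adjusted p = 0.000519). Of 26 genes of the TNF receptor and IKK pathway, 0 were higher and 7 lower in shTST and 2 higher and 9 lower in overTST. IRAK1, the TNF receptor gene TNFRSF1A and the LUBAC subunit gene RBCK1 were lower in shTST (−0.26, −0.25 and −0.18, adjusted p = 0.000370, 0.000407 and 0.00860), and the LUBAC subunit gene RNF31, the IKKα gene CHUK and the TAK1 gene MAP3K7 were lower in overTST (−0.31, −0.45 and −0.30, adjusted p = 0.000255, 0.000549 and 0.00128).

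Of 37 further NF-kB targets only 19 were expressed highly enough to test, with 0 higher and 3 lower in shTST and 2 higher and 1 lower in overTST. Thus 3 of 19 were called in each line, no more than the share of all genes in either comparison. In shTST the survival gene BCL2L1 (−0.20, adjusted p = 0.00411), TNIP1, which binds A20 (−0.16, adjusted p = 0.0154), and the urokinase gene PLAU (−0.58, adjusted p = 0.0414, and 0.135 without WT replicate 2) were lower. In overTST the cytokine gene IL32 (0.34, adjusted p = 2.63e-05) and NFKBIE, which encodes IκBε (0.26, adjusted p = 0.0120), were higher, and the complement gene C3 (−0.31, adjusted p = 0.000263) was lower. Without WT replicate 2 the counts in shTST were 2 higher and 4 lower for the other immediate-early genes, 1 and 5 for ERK feedback, 1 and 6 for the ERK, JNK and SRF pathway, 0 and 6 for the TNF receptor and IKK pathway, and 0 and 2 for the further NF-kB targets. In overTST they were 8 and 4, 3 and 2, 3 and 12, 3 and 9, and 3 and 1, in the same order. In shTST against overTST, 3 of 34 other immediate-early genes were higher and 8 lower, and 3 of 16 ERK feedback genes were higher and 5 lower. In the ERK, JNK and SRF pathway 11 of 31 were higher and 5 lower. In the TNF receptor and IKK pathway 7 of 26 were higher and 4 lower. Among 19 further NF-kB targets 1 was higher and 6 lower. Of all genes tested between the lines, 16.9% were higher and 16.1% lower in shTST. No share of all genes is given for the fits without WT replicate 2, and the lists were not tested as sets.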

How the data were processed

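RNA was sequenced from 12 HepG2 libraries, 4 each of WT, shTST and overTST. Per the submitters' processing notes, the authors trimmed reads with Trimmomatic 0.36, aligned them to GRCh38 with STAR 2.5.2b and counted reads per gene with featureCounts of Subread 1.5.2, and the deposited values are raw counts. Whether counting used strand is not given in the sources used here. The members, the pathway lists and the tests were chosen with earlier results of these data known. Genes were named by gene ID (56410 of 57500 matched).

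Each line was compared with WT on its 8 libraries, and shTST with overTST in a fit of all 12, with edgeR 4.0.16 (filterByExpr, TMM, quasi-likelihood test, Benjamini-Hochberg adjustment over all genes tested, threshold 0.05). Each standard error came from the fitted fold change and its F statistic (|log2 fold change| over √F). CPM used library totals scaled by TMM factors, and TPM the union of exons. Depth was 22911380 to 45120508 counts per library, floors are 3 counts and cover counting error only. Replicates were named as independent, and no pair of libraries was identical. Scripts were tested on simulated data. Values in every library were given for BHLHE40, FOS, JUN, EGR1, MYC, NFKBIA, NFKB1, RELA, TNFAIP3 and CXCL8, and for each other member called with an absolute log2 fold change of at least 0.3 in any comparison. Of each pathway list, up to 3 genes with the smallest p among those called in a comparison were eligible to be named. The values of 1 such gene are not reported here. Alternatives were DESeq2 1.42.0, limma-voom (limma 3.58.1), other normalizations, filters and fits, and leaving out each library.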

Additional observations from a re-analysis of the deposited data

Results flagged for a closer look

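In 16 of 123 groups of 4 libraries, 1 library stood farther from the rest than Dixon's 95% critical value allows, where chance gives about 1 in 20 groups. In 8 of the 16 it was WT replicate 2, always the highest: FOSL1 (27.94 CPM), JUN (62.88), JUNB (28.24), KLF10 (33.27), DUSP1 (17.99), ZFP36L1 (97.93), NFKBIA (137.3) and ICAM1 (83.96). The values of the other WT libraries and the comparisons without this library are given above, and what set it apart was not tested.

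The other 8 were spread over the lines. In shTST, replicate 2 was high in FOSL1 (22.34 CPM) and low in REL (2.646), replicate 3 was low in JUN (48.76), replicate 1 was high in KLF6 (56.43) and replicate 4 was high in KLF10 (18.59). In overTST, replicate 4 was high in JUN (72.69) and low in KLF5 (3.909), and replicate 1 was low in JUND (161.9).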

How the results depend on the processing

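The number of members called stayed within 1.5 times its reported value under every alternative. It was 10 to 18 for shTST against WT, 15 to 22 for overTST against WT and 21 to 25 for shTST against overTST. For shTST against WT it fell from 15 to 10, the limit of that range, with DESeq2, with limma-voom and without shTST replicate 1. All 10 were lower in each of these fits. The share of all genes called is not given for the alternatives. Of the values of the members described one by one, 1433 kept their direction and side of the threshold, 55 lost the call, 21 gained one and 29 changed sign. The median log2 fold change ranged from −0.1912 to −0.1274 in shTST (without WT replicate 2, and −0.1423 without shTST replicate 2) and from −0.0819 to 0.01635 in overTST when a library was left out. Between the lines it was −0.1414 with no filter, −0.1412 after length correction and −0.1287 with the replicate block and length correction. The cause was not tested.

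Same-numbered libraries did not deviate together (correlations of −0.0527 to 0.0801 over 12 pairs), so no pairing by number was seen. Whether same-numbered libraries shared a day or a batch was not tested. With the replicate block, 16 members were called in shTST against WT, 20 in overTST against WT and 23 between the lines.

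No member described one by one whose value changed sign had been called in that comparison. In shTST these were KLF6 (0.01559 with upper-quartile normalization, 0.006279 after length correction and 0.01118 with block and length correction) and ZFP36 (0.0003994 with DESeq2, 0.01452 with upper-quartile normalization and 0.006993 with the block). In overTST they were RELA (0.006406 after length correction and 0.006336 with the block added) and NFKBIA (−0.07233 and −0.05319). When a library was left out, the shTST ranges were −0.1376 to 0.1279 for FOSL1, −0.06153 to 0.06897 for KLF6, −0.07183 to 0.141 for ZFP36, −0.1054 to 0.08958 for REL and −0.1548 to 0.03279 for NFKBIA. The overTST ranges were −0.2428 to 0.01192 for FOS, −0.4181 to 0.1773 for JUNB, −0.03248 to 0.1685 for DUSP6, −0.07486 to 0.004624 for NFKB2, −0.004017 to 0.1818 for NFKBIA and −0.1134 to 0.003174 for ICAM1. Of the other members, none called in the comparison concerned, FOSB, FOSL2 and IER5 in shTST, DUSP1, ZFP36L1 and CCL20 in overTST, and FOSB, KLF5, DUSP1, ZFP36L1, TNFAIP2, BIRC2 and CCL20 between the lines also changed sign when a library was left out.

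At 7 to 51 counts a library, differences in CXCL8 and TNFAIP2 were measured with wide errors, and CXCL1 and CXCL2 were not detectable at this depth.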
